A study of Mus musculus with 3 samples.

Results

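The splicing and hnRNP genes examined here are those whose name on the array begins with Hnrp, Sfrs and a digit, Snrp, Sf3a or Sf3b, Prpf, Lsm and a digit, U2af, or Rbm and a digit, with 1 listed exception, and that had at least 3 probes. That rule gave 104 genes, each with 1 promoter and together 1352 probes, of 16079 genes and 16164 promoters measured. By family they were 16 hnRNP genes, 14 SR genes (array symbols Sfrs), 12 Snrp genes, 12 LSm genes, 10 SF3 and U2AF genes, 12 PRPF genes and 28 RBM genes. Families follow the array symbol alone and not the role of the protein. Their names are those of the array design. RefSeq matched 103 of them, 68 under the same current symbol, and current names are given below where they differ. The rule itself uses names and probe number and no measured value.

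The study asked where the PRDM2 protein and dimethylated histone H3 lysine 9 (H3K9me2) lie on promoters of quiescent muscle precursors. C2C12 is an immortalised line of mouse myoblasts. Suspension in 2% methylcellulose held the cells in G0. They were crosslinked in 1% formaldehyde, the reaction was stopped by 0.125 M glycine, and sonicated chromatin was immunoprecipitated. PRDM2 was pulled down for 2 arrays and H3K9me2 for 1 array, and on each array the immunoprecipitated DNA (IP, Cy5) was hybridised against its input DNA (Cy3). All 3 arrays come from the same unmodified line in the same arrested state, without a proliferating or PRDM2-depleted group and without a mock immunoprecipitation in the samples analysed here. The labels do not say that the PRDM2 arrays came from separate cultures, so p-values rest on the spread between those arrays, which may be technical. In the limma fits the spread of each promoter is drawn towards that of all promoters. A p-value therefore does not follow the promoter's own spread alone. The number of arrays limits the precision.

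Before pre-mRNA is translated its introns are removed by the spliceosome, which is built from small nuclear ribonucleoproteins (snRNPs). Sm proteins and LSm proteins form rings around the snRNAs. Only some of the Snrp genes encode Sm proteins, and others, such as Snrpa, encode other snRNP proteins. SF3 and U2AF proteins recognise the branch point and the 3′ splice site, and PRPF proteins act in the tri-snRNP and in catalysis. SR proteins mostly favour the use of nearby exons, hnRNPs bind nascent transcripts and often oppose them, and RBM proteins are a mixed set of RNA-binding proteins. PRDM2 (RIZ1) is a zinc finger protein with a PR domain that methylates H3K9, and H3K9me2 is a mark associated with silent chromatin. Most splicing genes are used in every cell type and start in CpG-rich sequence.

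Because base composition matters for what follows, the sequences around 4 RefSeq starts are shown. Sfrs1 and Sfrs6 are SR genes with high PRDM2 ratios, Prpf8 encodes the core spliceosomal protein, and Rbm19 had the lowest PRDM2 ratio beside promoters of like GC content. These 4 were picked after their values were seen. Each window runs from 250 bases before to 50 bases after the start, 5′ to 3′ on the plus strand of GRCm38.p6. Capitals mark the gene's array probes that lie wholly within the window.
Sfrs1, chr11:88047123-88047422: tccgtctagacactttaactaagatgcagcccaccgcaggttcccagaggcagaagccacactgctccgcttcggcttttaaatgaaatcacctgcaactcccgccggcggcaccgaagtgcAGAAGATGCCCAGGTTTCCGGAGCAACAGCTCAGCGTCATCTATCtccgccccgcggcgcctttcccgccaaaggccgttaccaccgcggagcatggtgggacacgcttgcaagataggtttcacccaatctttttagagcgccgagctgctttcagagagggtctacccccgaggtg
Sfrs6, chr2:162931258-162931557: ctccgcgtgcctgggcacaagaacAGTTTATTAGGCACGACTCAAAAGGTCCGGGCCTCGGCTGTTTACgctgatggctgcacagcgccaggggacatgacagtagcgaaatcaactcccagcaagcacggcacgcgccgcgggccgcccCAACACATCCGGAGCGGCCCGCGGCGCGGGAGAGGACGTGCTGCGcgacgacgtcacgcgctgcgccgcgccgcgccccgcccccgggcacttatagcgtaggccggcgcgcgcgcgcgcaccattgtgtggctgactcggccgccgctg
Prpf8, chr11:75486527-75486826: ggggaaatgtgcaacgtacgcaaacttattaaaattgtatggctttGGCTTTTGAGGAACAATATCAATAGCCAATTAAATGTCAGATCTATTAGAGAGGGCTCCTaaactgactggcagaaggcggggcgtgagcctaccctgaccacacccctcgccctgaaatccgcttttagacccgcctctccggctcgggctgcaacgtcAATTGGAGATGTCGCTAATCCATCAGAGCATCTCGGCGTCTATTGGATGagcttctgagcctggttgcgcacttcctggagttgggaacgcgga
Rbm19, chr5:120116263-120116562: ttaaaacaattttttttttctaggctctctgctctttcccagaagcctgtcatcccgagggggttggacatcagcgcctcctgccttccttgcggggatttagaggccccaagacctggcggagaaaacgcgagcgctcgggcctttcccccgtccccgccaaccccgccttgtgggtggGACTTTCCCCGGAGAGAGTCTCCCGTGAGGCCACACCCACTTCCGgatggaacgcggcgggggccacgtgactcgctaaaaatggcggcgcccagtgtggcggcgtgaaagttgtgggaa

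The CpG dinucleotides numbered 45 in the Sfrs6 window, 22 in Sfrs1, 16 in Prpf8 and 23 in Rbm19. The probes within a window could differ widely. In Sfrs6 the probe nearer the start, with 75.6% GC, had log2 IP over input of 6.70 and 7.06 on the PRDM2 arrays and 3.61 on the H3K9me2 array. Its neighbour farther upstream, with 51.1% GC, had -1.03 and 2.27 on the PRDM2 arrays and -0.92 on the H3K9me2 array. In Prpf8 the probe of 38.3% GC had -0.76 and -1.14 on the PRDM2 arrays and -4.79 on the H3K9me2 array, and the probe of 46.9% GC across the start had 0.27, 1.24 and -1.32. Within these pairs the probe richer in GC was the higher on every array.

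RefSeq windows of the same length were found for 83 of the 104 genes and for 12470 genes of the array. The members' windows held a median of 24 CpG dinucleotides, against 17 over all genes, with median GC contents of 60% and 58.3%. Searched on both strands, the GC box core GGGCGG was in 65.1% of the members' windows, against 53.2% of all windows, and CCAAT in 47.0%, against 38.5%. The ETS-type core CCGGAA was in 42.2% of the members' windows, against 21.9% of all, and TATAAA in 8.43%, against 11.8%. None of these 4 motifs contains another. By family, CCGGAA was in 8 of 13 SR windows and 6 of 10 PRPF windows but in 1 of 9 LSm windows, and CCAAT in 11 of 15 hnRNP windows but 3 of 13 SR windows. Among the members described below as higher over input CCGGAA was in 14 of 42 windows, against 21 of 41 among the other members. These matches are descriptions of sequence and not sites of binding.

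Each promoter value below is the mean over its probes of log2 IP over input, with 0 set at the median probe of that array. Before this centring the median log2 ratio was -0.91 and -0.80 on the PRDM2 arrays and -0.27 on the H3K9me2 array, so a value is relative to the rest of the array and not an absolute enrichment. The IP channel was well above background in 75.7% and 71.1% of probes on the PRDM2 arrays and 78.9% on the H3K9me2 array, and the input channel in 98.0%, 99.0% and 92.8%. The members' promoters correlated between the PRDM2 arrays at r = 0.67, against 0.73 over all promoters, as a description over promoters that share each array. The SD between the PRDM2 arrays had a median of 0.23 over the members and reached 1.12 in Rbm10.

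PRDM2 over input was above the median probe (limma, adjusted p under 0.05) at 54 of the 104 splicing and hnRNP promoters, and below it at 1, Sf3a1. Over all promoters 46.9% were higher and 1.08% were lower, so the overall share was near the background. By family, 13 of 16 hnRNP, 11 of 14 SR and 2 of 10 SF3 and U2AF promoters were higher. Snrp promoters gave 6 of 12, LSm and PRPF promoters 5 of 12 each and RBM promoters 12 of 28. The median PRDM2 ratio was 0.95 in hnRNP genes, 1.05 in SR genes, 0.50 in Snrp genes, 0.45 in LSm genes, 0.23 in PRPF genes, 0.33 in RBM genes and 0.11 in SF3 and U2AF genes, beside 0.56 over the members and 0.50 over all promoters. Both PRDM2 arrays were above 0 at 74 members and below 0 at 9, where 73.3% and 10.1% of all promoters were. Differences between families were not tested. With the median promoter as 0, 20 members were higher and 14 lower, where 17.2% and 13% of all promoters were. With the median over probes 3 members were higher, where 5.69% of all promoters were, and with normexp background correction none was, where 0% were.

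**Figure D1:**
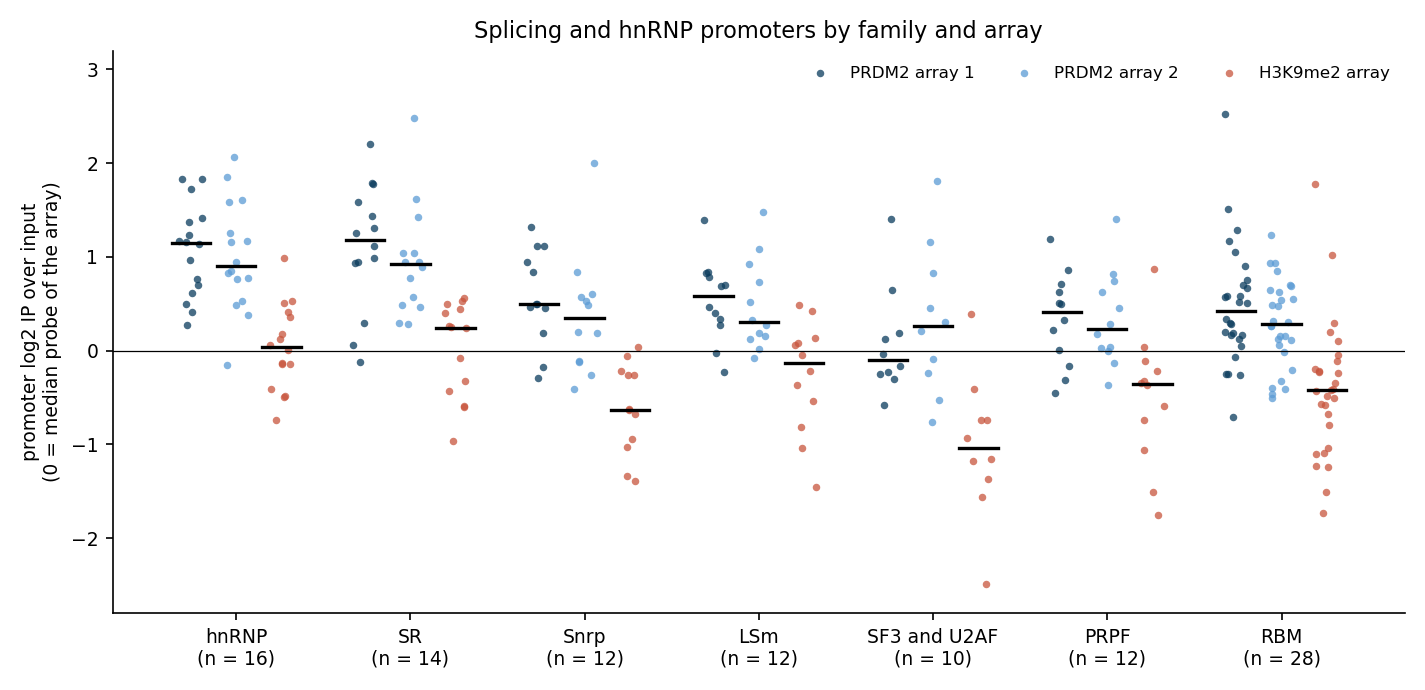
Promoter log2 IP over input (y axis; 0 is the median probe of the array) for the 104 splicing and hnRNP promoters by family (x axis), with dark blue points for PRDM2 array 1, light blue for PRDM2 array 2 and red for the H3K9me2 array; each point is a promoter and each bar the family median. The hnRNP and SR medians lie highest on both PRDM2 arrays, and the SF3 and U2AF median is lowest on the H3K9me2 array, at -1.04.

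Among hnRNP genes, Hnrpdl (now Hnrnpdl), Hnrpk (Hnrnpk) and Hnrpr (Hnrnpr) had the highest PRDM2 ratios. Hnrpdl encodes a relative of the AU-rich element binding protein hnRNP D, and had 1.73 and 1.85 on the PRDM2 arrays and 0.51 on the H3K9me2 array. Hnrpk encodes a poly(C)-binding protein, and had 1.41 and 2.07 on the PRDM2 arrays and 0.42 on the H3K9me2 array. Hnrpr had 1.83 and 1.59 on the PRDM2 arrays and 0.99 on the H3K9me2 array, the highest H3K9me2 ratio among hnRNP genes. All 3 passed the test for PRDM2 over input (limma, adjusted p = 9.9e-05, 0.00019 and 0.00013). Hnrpa2b1 (Hnrnpa2b1), a core hnRNP particle protein, had 1.15 and 1.61 on the PRDM2 arrays and 0.06 on the H3K9me2 array (adjusted p = 0.000455).

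The 3 hnRNP promoters that missed the test were Hnrpa1, Hnrpu and Hnrph2. Hnrpa1 (Hnrnpa1), known for blocking splice sites, had 0.50 and 0.48 on the PRDM2 arrays and -0.14 on the H3K9me2 array (adjusted p = 0.06), over 5 probes. Hnrpu (Hnrnpu), a scaffold attachment protein, had 0.97 and -0.15 on the PRDM2 arrays and 0.01 on the H3K9me2 array, so that the PRDM2 arrays lay on opposite sides of the median probe. Hnrpu and Hnrph2 were also dim in input: beside promoters of like GC content the log2 input signal of Hnrpu was -1.08 and -1.26 on the PRDM2 arrays and that of Hnrph2 -1.15 and -1.54. Some members that passed, such as Sfrs6 and Snrpd1, were dim in input too, and a link with the missed test was not tested.

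Among SR genes, Sfrs2 (Srsf2), whose promoter had the highest mean probe GC content of the members at 55.6%, had 1.25 and 2.49 on the PRDM2 arrays and 0.44 on the H3K9me2 array (limma, adjusted p = 0.00035). Sfrs6 (Srsf6) had 1.78 and 1.62 on the PRDM2 arrays and 0.24 on the H3K9me2 array (adjusted p = 0.00013). Sfrs1 (Srsf1), the SR protein also called ASF/SF2, had 1.79 and 0.95 on the PRDM2 arrays and -0.32 on the H3K9me2 array (adjusted p = 0.00086). These SR promoters were above their H3K9me2 value on both PRDM2 arrays. Sfrs9 (Srsf9) had 2.21 and 0.95 on the PRDM2 arrays and 0.57 on the H3K9me2 array, and Sfrs3 (Srsf3), a small SR protein also tied to mRNA export, had 1.31, 0.49 and -0.60. The 3 SR promoters that missed the test were Sfrs11 (Srsf11), Sfrs10 and Sfrs12 (Srek1), with means of 0.18, 0.22 and 0.29 over the PRDM2 arrays. Sfrs11 and Sfrs12 had low mean probe GC, at 35.7% and 36.0%.

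The Snrp genes divided evenly. Snrpd1, an Sm core protein gene measured by 5 probes, had 1.12 and 2.01 on the PRDM2 arrays and -0.67 on the H3K9me2 array (limma, adjusted p = 0.00047). Snrpn, the Sm protein gene of the imprinted region of mouse chromosome 7, had 1.32 and 0.49 on the PRDM2 arrays and -0.22 on the H3K9me2 array (adjusted p = 0.0081). Snrpb, its close relative, had 0.95, 0.57 and -0.26 in the same order. Snrpa, a U1 snRNP protein, was the lowest of the family, at -0.29 and -0.25 on the PRDM2 arrays and -1.03 on the H3K9me2 array. Both PRDM2 arrays lay above the H3K9me2 array at all 12 Snrp promoters, as at all 10 SF3 and U2AF promoters, where 85.2% of all promoters did.

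Of the LSm genes, Lsm14b, whose product relates to cytoplasmic mRNP granules, was highest with 1.40 and 1.48 on the PRDM2 arrays and 0.13 on the H3K9me2 array (limma, adjusted p = 0.00028). Lsm12 followed with 0.83, 1.09 and -0.04, and Lsm7 was lowest with -0.23, 0.13 and -1.45. Lsm1, part of the cytoplasmic ring that acts in mRNA decay, had 0.28 and 0.16 on the PRDM2 arrays, below the 0.42 of its H3K9me2 array.

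In the branch point and 3′ splice site group, U2af2 had the highest PRDM2 ratio. U2af2 encodes the large U2AF subunit, which binds the polypyrimidine tract, and had 1.41 and 1.82 on the PRDM2 arrays and 0.39 on the H3K9me2 array (limma, adjusted p = 0.0002). Its partner U2af1, the small subunit, had 0.13 and 0.21 on the PRDM2 arrays and -1.15 on the H3K9me2 array. Sf3a1, an SF3a subunit, was the only member called lower over input, with -0.58 and -0.76 on the PRDM2 arrays and -1.56 on the H3K9me2 array (adjusted p = 0.017). Sf3b4 had -0.31 and -0.52 on the PRDM2 arrays and -2.49 on the H3K9me2 array, the lowest H3K9me2 value of the 104 promoters. Sf3b1, the SF3b subunit that holds the branch point, had -0.25, 0.31 and -0.74, and Sf3b2 had -0.16, -0.23 and -0.74. The other promoter called higher was Sf3b5, with 0.64, 0.45 and -1.36 (adjusted p = 0.041). On the H3K9me2 array 5 of the 10 promoters of this group were under -1, where 12.2% of all promoters were, and beside promoters of like GC content 2 were, where 5.54% of all were.

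Among PRPF genes, Prpf38b had 0.63 and 1.41 on the PRDM2 arrays and -0.34 on the H3K9me2 array (limma, adjusted p = 0.004). Prpf8 had 0.86 and 0.82 on the PRDM2 arrays and -0.11 on the H3K9me2 array (adjusted p = 0.0051). Prpf6, a tri-snRNP bridging protein, was the lowest, at -0.31 and 0.04 on the PRDM2 arrays and 0.04 on the H3K9me2 array. Prpf4 had 0.01 and -0.13 on the PRDM2 arrays and -1.75 on the H3K9me2 array.

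Among RBM genes, Rbm10, an X-linked splicing regulator measured by 4 probes, had 2.53 and 0.94 on the PRDM2 arrays and 1.77 on the H3K9me2 array (limma, adjusted p = 0.0011). Rbm14 had 1.51, 1.24 and 0.29 and Rbm3, the cold-inducible RNA-binding protein gene, 1.17, 0.93 and -0.51. The promoter of Rbm14 lies 13883 bp from that of Rbm4 on chromosome 19, and Rbm4 had 0.17 and -0.21 on the PRDM2 arrays and -0.58 on the H3K9me2 array. Rbm5, a regulator of apoptosis gene splicing, had -0.07, -0.32 and -0.34, and Rbm8a, the exon junction complex subunit Y14, had -0.25, -0.41 and -1.09. Rbm19 had the lowest mean of the RBM genes, with -0.71 and -0.02 on the PRDM2 arrays and -1.04 on the H3K9me2 array.

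The PRDM2 ratio followed the GC content of the probes. Over all promoters mean probe GC correlated with the PRDM2 ratio at r = 0.56 and 0.64 on the PRDM2 arrays and with the H3K9me2 ratio at r = 0.069. Over the members the values were 0.38, 0.57 and 0.14. These are descriptions over promoters of the same arrays. In the 20 equal classes of GC content the median of the non-member promoters was 1.57 and 1.51 on the PRDM2 arrays in the class richest in GC, against 0.11 and -0.06 in the class of 37.4% to 38.7% GC. The H3K9me2 ratio also varied with GC content, but not along a line, so its r is small. Its median was 0.68 in the class poorest in GC, -0.51 in the class of 41.4% to 42.1% GC and 0.35 in the richest. The hnRNP and SR promoters were richer in GC than most members, with medians of 46.2% and 46.1%, against 43.8% over the members and 43.9% over all promoters. Each value was therefore also set beside the median of the non-member promoters in its own GC class, array by array.

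**Figure D2:**
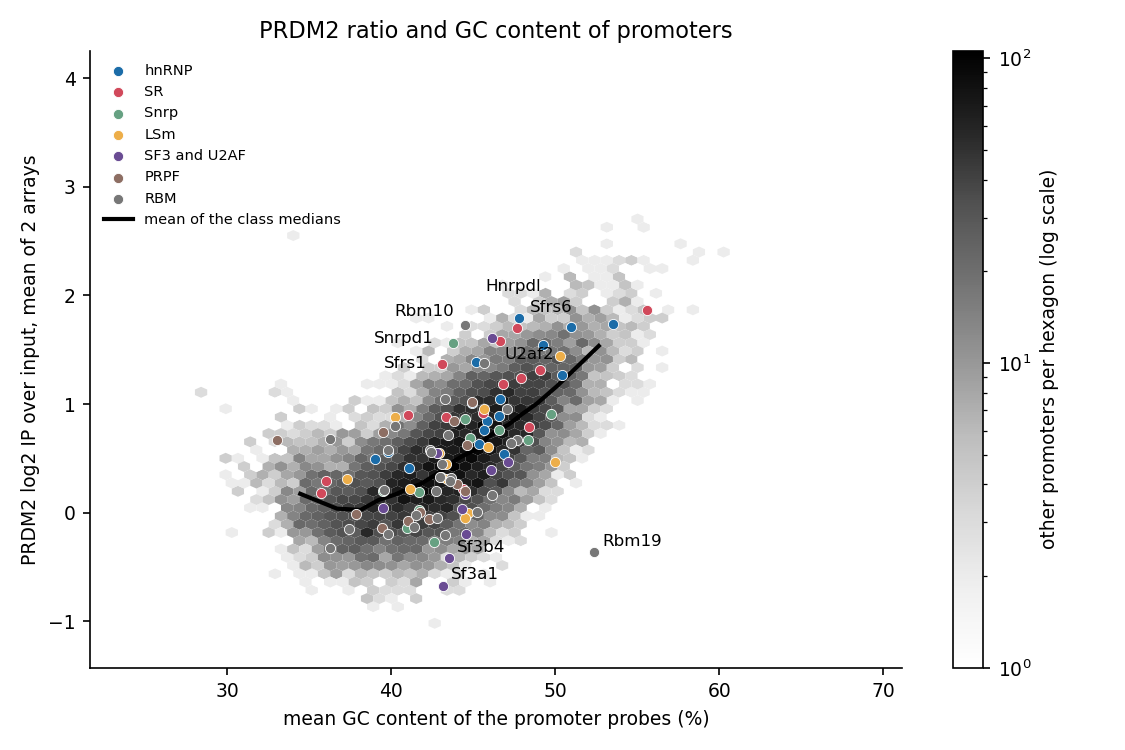
Mean PRDM2 log2 IP over input of 2 arrays (y axis) against mean probe GC content in percent (x axis), with coloured points for the splicing and hnRNP promoters by family, grey hexagons for the other promoters (shade on a log scale of their number) and a black line for the mean over both arrays of the medians of the 20 GC classes. Rbm19 lies far below the line and Sfrs1, Snrpd1 and Rbm10 above it.

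Beside promoters of like GC content, 5 members were higher for PRDM2 and 3 were lower (limma, adjusted p under 0.05), where 2.98% and 2.3% of all promoters were. At an unadjusted p under 0.05 the counts were 21 and 11, against 13.5% and 12% of all promoters. The members' median was 0.071. SR promoters lay above their class median on both arrays in 10 of 14 cases and below on both in none. The hnRNP promoters lay above on both arrays in 9 of 16 and below in 1. SF3 and U2AF promoters lay above in 2 of 10 and below in 6. Over all promoters the shares were 34.5% above and 34.4% below. The family medians beside like GC were 0.34 for SR, 0.24 for hnRNP, 0.031 for LSm, -0.056 for Snrp, -0.13 for RBM, -0.14 for PRPF and -0.37 for SF3 and U2AF genes.

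The 5 members higher beside like GC were Hnrpdl, Sfrs1, U2af2, Sfrs6 and Snrpd1. Hnrpdl was at 0.75 and 1.03 on the PRDM2 arrays, a mean of 0.89 ± 0.20 (SD, n = 2; limma, adjusted p = 0.039). Sfrs1 was at 1.35 and 0.64, a mean of 0.99 ± 0.50 (adjusted p = 0.041). U2af2 was at 0.62 and 1.21, a mean of 0.92 ± 0.41 (adjusted p = 0.045). All 3 were above their class on both arrays, and so were the other two: Sfrs6 was at 0.80 and 0.79 (mean 0.79 ± 0.0040, adjusted p = 0.045) and Snrpd1 at 0.57 and 1.64 (mean 1.11 ± 0.75, adjusted p = 0.046). Rbm10 had a larger mean, 1.18 ± 1.04, but its arrays differed at 1.91 and 0.44 and it missed the threshold (adjusted p = 0.062).

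The 3 members lower beside like GC were Rbm19, Sf3a1 and Sf3b4. Rbm19, whose product acts in ribosome assembly, was at -2.27 and -1.52, a mean of -1.90 ± 0.53 (limma, adjusted p = 0.0082). Sf3a1 was at -1.03 and -1.07, a mean of -1.05 ± 0.027 (adjusted p = 0.025), and Sf3b4 at -0.85 and -0.89, a mean of -0.87 ± 0.031 (adjusted p = 0.038). Sf3b2, another SF3b subunit gene, lay just outside the threshold at -0.77 and -0.73 (adjusted p = 0.0501). These 8 calls were not stable: with the median over probes, or with a variance trend in the fit, none of the 5 higher and none of the 3 lower calls was made, while loess gave 25 higher and 13 lower members, where 15.4% and 13.9% of all promoters were called.

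A ratio can move through either channel, so the log2 IP and input signals were each set beside promoters of like GC content too. U2af2 was bright in IP, at 0.89 and 1.55 on the PRDM2 arrays, with input at 0.22 and 0.31. Hnrpdl was at 0.36 and 0.43 in IP and -0.46 and -0.64 in input, and Sfrs1 at 0.98 and 0.06 in IP and -0.39 and -0.63 in input. For Sfrs6 the IP signal was below its class, at -0.22 and -0.15, and the input further below, at -1.10 and -0.99. Snrpd1 was at -0.59 and 0.33 in IP and at -1.21 and -1.37 in input. Of the 5 higher members, then, Sfrs6 had no IP signal above its class on either array, and 4 had input below their class on both.

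Among the lower members, Rbm19 was at -0.62 and -0.02 in IP, with input 1.61 and 1.503 above its class on the PRDM2 arrays and 1.54 on the H3K9me2 array. Sf3a1 was at -0.28 and -0.57 in IP and 0.73 and 0.45 in input, and Sf3b4 at -0.60 and -1.05 in IP and 0.21 and -0.22 in input. Across the 104 members the PRDM2 ratio beside like GC correlated with IP at r = 0.47 and with input at r = -0.48, against 0.55 and -0.26 over all promoters, with the ratio sharing its terms with both. The part of the input signal in these calls was not tested.

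The probes of the highest members show where the signal lay. For each of the 5 members with the highest mean beside like GC and the same sign on both arrays, the probe highest on the lower of the PRDM2 arrays was taken, and the probes of 4 of them are printed 5′ to 3′ with CpG dinucleotides in capitals.
Rbm10: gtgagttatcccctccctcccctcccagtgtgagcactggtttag
Sfrs1: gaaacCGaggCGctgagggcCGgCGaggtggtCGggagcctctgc
U2af2: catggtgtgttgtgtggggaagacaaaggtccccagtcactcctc
Hnrpdl: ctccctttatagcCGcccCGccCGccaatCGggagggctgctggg
The Sfrs1 probe, 906 bp after the RefSeq start and 73.3% GC, had 5.20 and 5.55 on the PRDM2 arrays and 2.14 on the H3K9me2 array. The Hnrpdl probe, at 71.1% GC, had 4.07 and 4.03 on the PRDM2 arrays and 0.30 on the H3K9me2 array. The U2af2 probe holds no CpG at 55.6% GC and had 5.74, 3.92 and 2.79, and the Rbm10 probe, also without CpG, had 3.85, 2.84 and 1.93. High probes thus occurred both with and without CpG dinucleotides.

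Within Hnrpdl, of 6 probes, the PRDM2 values were lowest at those poorest in GC. The probes of 23.3% and 33.3% GC had -0.87 and -1.32 on PRDM2 array 1 and -0.86 and -0.64 on array 2. The probes of 62.2% and 71.1% GC had 3.58 and 4.07 on array 1 and 3.89 and 4.03 on array 2. No member held a run of 3 or more neighbouring probes above the 95th percentile of the probes on both PRDM2 arrays, where 0.266% of all promoters did.

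**Figure D3:**
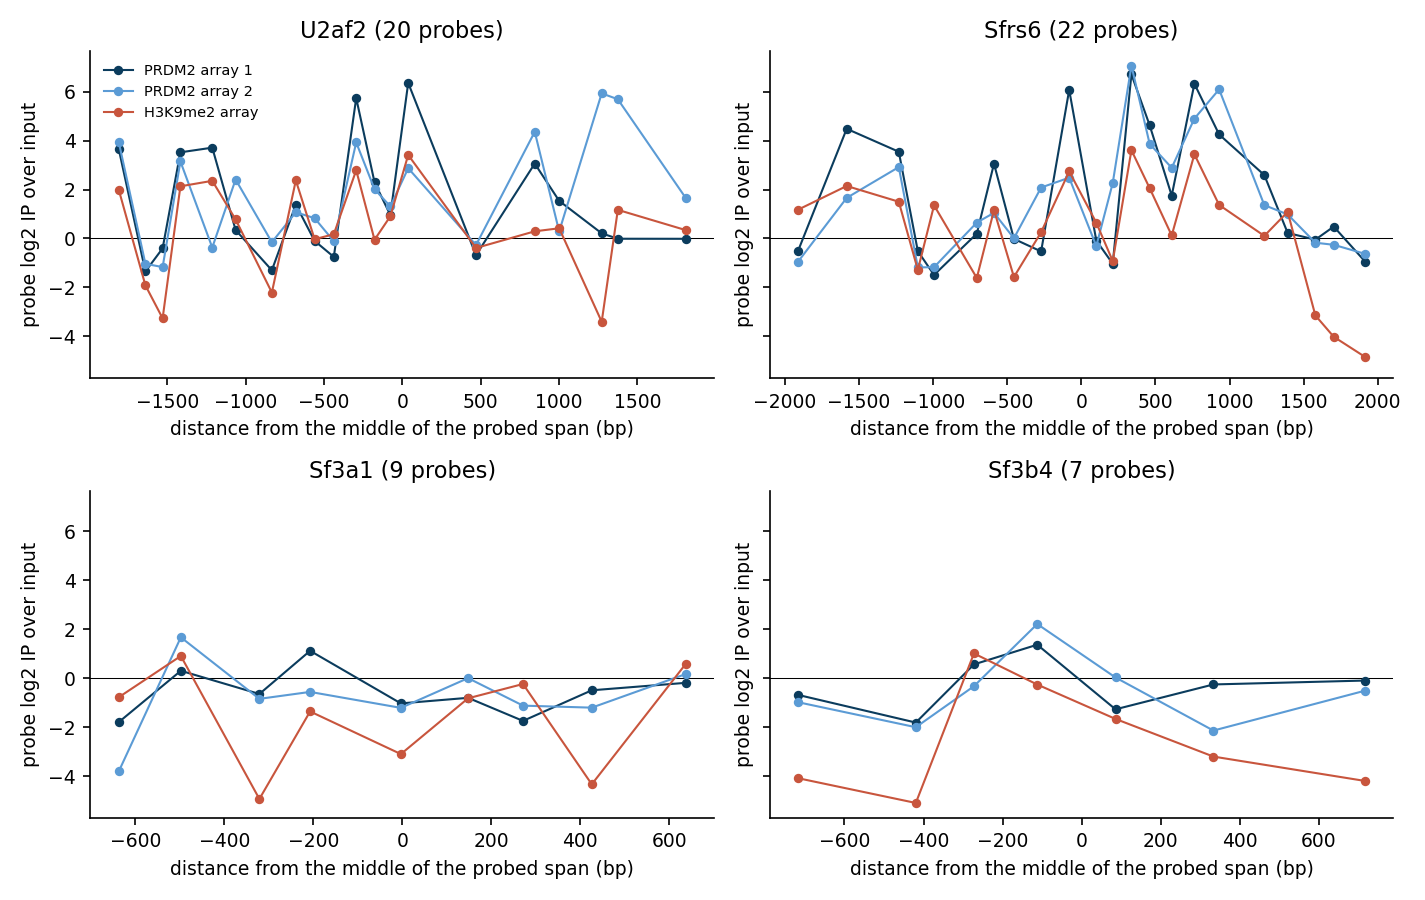
Log2 IP over input of each probe (y axis) by distance in bp from the middle of the probed span (x axis) for U2af2, Sfrs6, Sf3a1 and Sf3b4, with dark blue lines for PRDM2 array 1, light blue for PRDM2 array 2 and red for the H3K9me2 array. U2af2 (20 probes) and Sfrs6 (22 probes) hold scattered high probes between probes near or below 0, while most probes of Sf3a1 (9 probes) and Sf3b4 (7 probes) lie near or below 0.

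Promoters were placed on the RefSeq starts by exact matches of probes to the start windows, which succeeded for 55 members and 9416 promoters in all. The probes of each promoter within an interval were averaged, and medians were taken over promoters. In the 500 bp after the start, the medians over 52 members were 2.09 and 1.76 on the PRDM2 arrays and 0.56 on the H3K9me2 array. Over the 8930 placed promoters with probes there they were 1.25, 1.24 and 0.39. In the 500 bp before the start the members' medians were 0.14, 0.40 and -0.67, against 0.53, 0.50 and -0.12 over all. Probe GC content peaked in the same interval after the start, at a median of 55.6% for the members and 51.5% over all. The PRDM2 ratio was thus highest just after the start, in the members and in all promoters alike. Beside probes of like GC content it was not: just after the start the members' medians were 0.30 and 0.050 on the PRDM2 arrays, against 0.32 and 0.068 in the bin from 1000 to 1500 bp after it, and over all placed promoters 0.096 and 0.075, against 0.21 and 0.11 in the bin from -2000 to -1500 bp. In the 500 bp before the start the members' medians beside like GC were -0.25 and -0.25 on the PRDM2 arrays and -0.81 on the H3K9me2 array. Over all placed promoters they were 0.085, 0.073 and -0.19 there. This difference between members and all promoters was not tested.

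The contrast of the 500 bp after the start with the 500 bp before it was chosen after these profiles were seen. It could be computed for 51 members, of which 21 were higher after the start for PRDM2 and 2 were lower (limma, adjusted p under 0.05), where 22.7% and 6.26% of the 8691 promoters were. Hnrpl (Hnrnpl) had 3.25 and 3.04 after the start and -1.21 and -0.69 before it on the PRDM2 arrays (adjusted p = 0.0044). Hnrpul1 (Hnrnpul1) had 3.67 and 3.40 after the start and -0.25 and -0.59 before it (adjusted p = 0.0045). Both genes were high after the start on both arrays. Rbm19, with -1.79 and -0.64 after and 0.95 and 1.15 before, was 1 of the 2 that ran the other way, beside Rbm43. The value of Rbm19 before the start is that of 1 probe, the one marked in its window, at 64.4% GC. H3K9me2 was higher after the start in 39 of the 51 members, where 60.5% of all promoters were, and both PRDM2 arrays in 35, where 51.9% were. Probes after the start were richer in GC by a median of 7.69 percentage points in the members, against 4.92 over all. Beside probes of like GC content no member was called either way (limma), where 0.334% and 0.253% of all promoters were. The members' median difference was 0.76 and 0.12 on the PRDM2 arrays, against 1.44 and 1.17 without that adjustment. Over the 8691 promoters it was -0.013 and -0.012, against 0.58 and 0.58 without that adjustment. The mean difference of Hnrpl was then 2.37 (adjusted p = 0.084), against 4.09 without it, that of Hnrpul1 0.77 (adjusted p = 0.42), against 3.96, and that of Rbm19 -0.62 (adjusted p = 0.54), against -2.27. Both PRDM2 arrays were then higher after the start in 25 members, where 34.1% of all promoters were, and H3K9me2 in 27, where 51.3% were. With normexp background correction no member was called before that adjustment either.

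**Figure D4:**
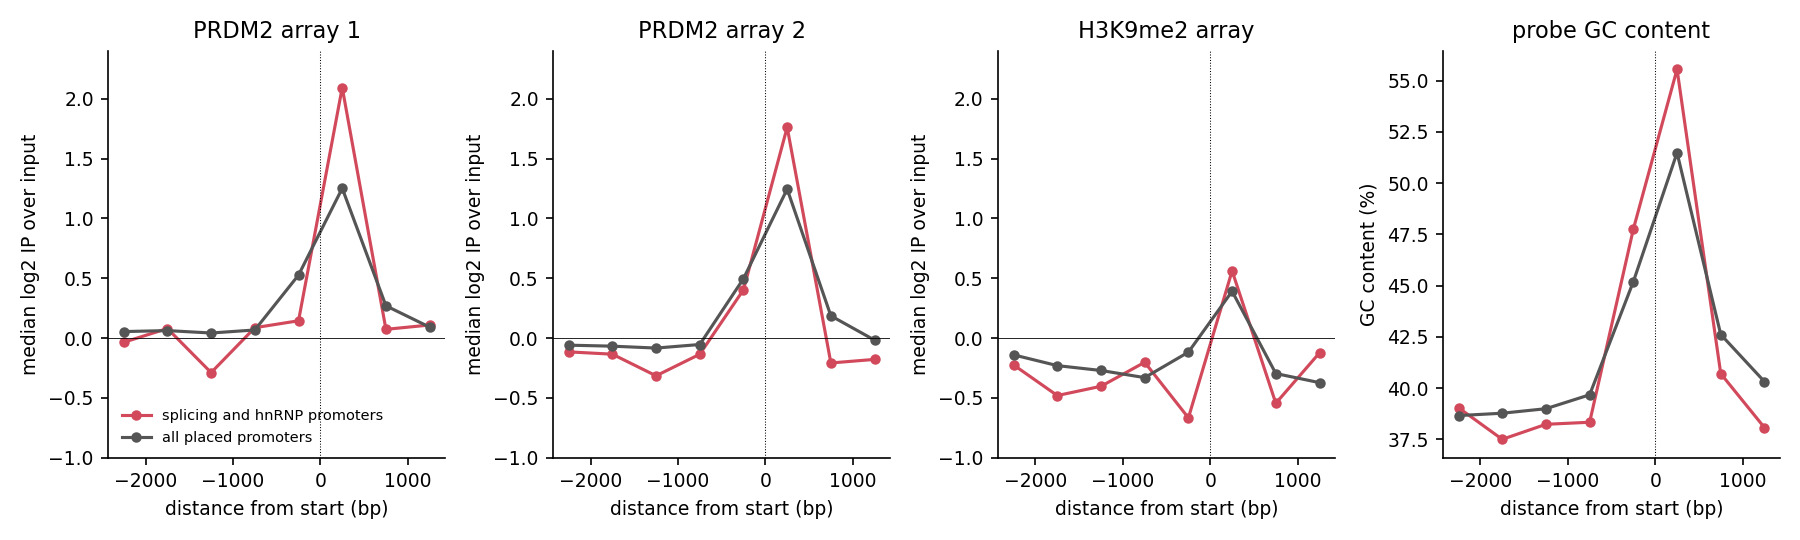
The 4 panels show log2 IP over input on PRDM2 array 1, PRDM2 array 2 and the H3K9me2 array, and probe GC content in percent (y axes). Each point is the median over promoters of their mean probe value in a bin of 500 bp, by distance from the RefSeq start (x axes, bp). Placed splicing and hnRNP promoters are in red and all placed promoters in grey. Bins hold 32 to 54 of the 55 placed members and 5962 to 9118 of the 9416 placed promoters. Ratio and GC content both peak in the bin after the start, where the members reach 2.09 on PRDM2 array 1.

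H3K9me2 was measured on 1 array, so its values carry no test. The members' median was -0.34, against -0.23 over all promoters, and beside like GC it was -0.024, with 2 members over 1 and 9 under -1, where 4.88% and 5.54% of all promoters were. A log2 ratio over 1 was seen at 2 members, Rbm10 with 1.77 and Rbm34 with 1.03, where 4.08% of all promoters exceeded it. A ratio under -1 was seen at 20 members, where 12.2% of all promoters lay. By family these were 5 of 10 SF3 and U2AF, 7 of 28 RBM, 3 of 12 Snrp, 3 of 12 PRPF and 2 of 12 LSm genes. No hnRNP or SR gene was among them. Sf3b4 at -2.49, Prpf4 at -1.75 and Rbm6 at -1.73 were the lowest. Runs of 3 or more neighbouring probes above the 95th percentile were found in Rbm34 and Sfrs11, where 0.643% of all promoters had one. Rbm34, which encodes an RNA-binding protein of little-known role, was 1.43 above its GC class for H3K9me2, and 0.21 and 0.32 above it on the PRDM2 arrays.

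PRDM2 minus H3K9me2 is the difference between the log2 ratios of the protein and of the mark at a promoter. In a fit that assumes the lone H3K9me2 array to vary like the PRDM2 pair, 52 members were higher for PRDM2 and none was lower (limma, adjusted p under 0.05), where 41.1% and 1.6% of all promoters were. The spread of H3K9me2 was not measured, so these p-values rest on that assumption. The largest differences were at Snrpd1 (2.23, adjusted p = 0.012), Rbm6 (2.18, adjusted p = 0.011) and Sf3b4 (2.08, adjusted p = 0.011). At Sf3b4 and Rbm6 the difference came with H3K9me2 values of -2.49 and -1.73, while PRDM2 averaged -0.42 and 0.45. Snrpd1 had PRDM2 ratios over 1 on both arrays, and its log2 input signal lay 2.27 below its GC class on the H3K9me2 array.

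Both PRDM2 arrays lay above the H3K9me2 array at 93 of the 104 members, where 85.2% of all promoters did. They lay below it at 4, namely Rbm34, Prpf39, Lsm1 and Sfrs12, where 7.64% of all promoters did. Prpf39 had 0.71 and 0.62 on the PRDM2 arrays and 0.87 on the H3K9me2 array, at a mean probe GC content of 33.0%, the lowest of the members. The medians of its GC class were 0.21 and 0.13 on the PRDM2 arrays and 0.68 on the H3K9me2 array. Sfrs12 had 0.30, 0.29 and 0.49. Beside promoters of like GC content no member differed between PRDM2 and H3K9me2 (limma; 0% of all promoters did), and an unadjusted p under 0.05 was reached by 9 that were higher and 2 that were lower, where 7.02% and 5.59% of all promoters were. With normexp, with the highest 3 neighbouring probes, with the median over probes or with bright probes only, the 52 calls fell to 0, and with the median promoter as 0 they fell to 2.

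**Figure D5:**
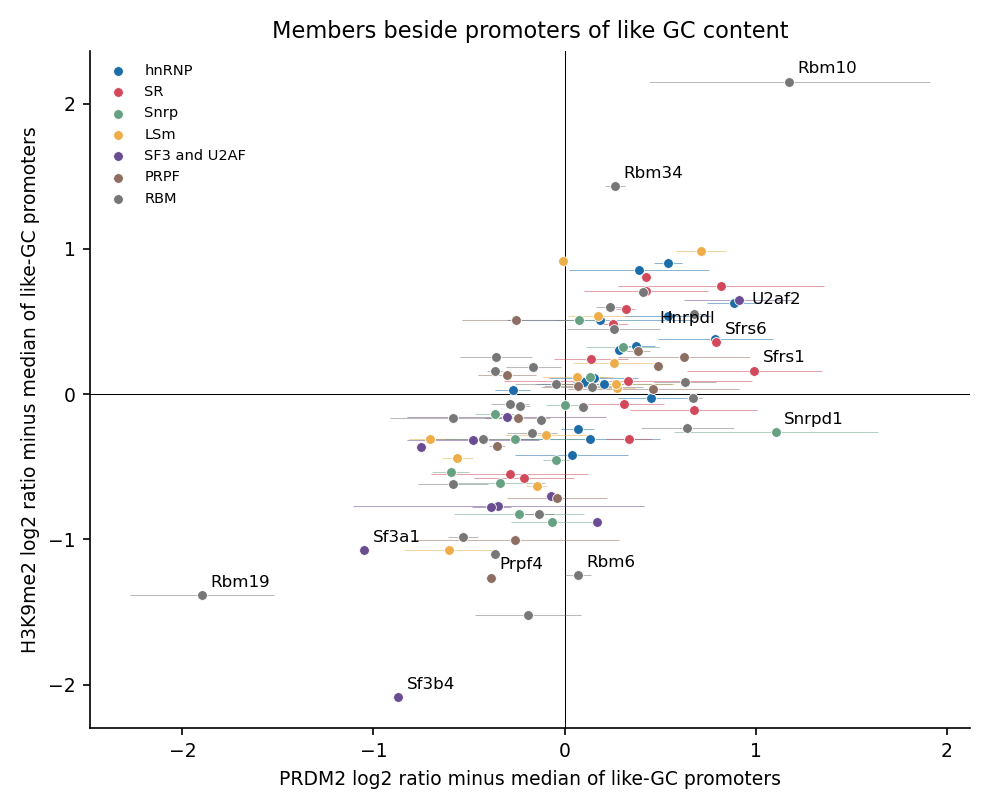
H3K9me2 (y axis, 1 array) against PRDM2 (x axis, mean of 2 arrays), both as log2 IP over input minus the median of the promoters of like GC content on that array, for the 104 splicing and hnRNP promoters coloured by family; horizontal lines join the PRDM2 arrays. Points run from Rbm19 and Sf3b4 at the lower left to Rbm10 at the upper right.

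PRDM2 and H3K9me2 ratios varied together over the members, with r = 0.66 between the PRDM2 mean and H3K9me2, against 0.52 over all promoters, and with 0.66 and 0.58 beside like GC. Points of 1 array share its hybridisation, and values of like GC content share their class medians, so these are descriptions. Sf3b4, Rbm19 and Sf3a1 were low beside like GC on all 3 arrays, at -2.09, -1.38 and -1.07 for H3K9me2. U2af2 and Hnrpdl were high on all 3, at 0.65 and 0.63 for H3K9me2, whereas Snrpd1 was high for PRDM2 and at -0.26 for H3K9me2.

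Other genes of the splicing pathway, taken from 8 lists of genes outside the name rule, held 143 names, of which 118 were measured, at 123 promoters. Of these 72 were higher for PRDM2 over input and none was lower (limma; 46.9% and 1.08% over all promoters), and beside like GC 4 were higher and 2 lower, where 2.98% and 2.3% of all promoters were. The hnRNP-like proteins and splicing regulators gave 28 higher of 37, the spliceosomal helicases 8 of 16, exon junction and export factors 9 of 17 and the Prp19 complex and catalytic step 5 of 13. The early U1 and U2 partners gave 7 of 10, SR kinases and SR-like proteins 6 of 11, the SMN complex 5 of 12 and the tri-snRNP list 4 of 7. Syf2, a catalytic-step factor, was highest beside like GC with 1.57 and 1.097 on the PRDM2 arrays and 0.12 on the H3K9me2 array (adjusted p = 0.02). Coil, the coilin gene of Cajal bodies, was lowest with -1.43, -1.05 and -0.53 (adjusted p = 0.022). Luc7l, Sart3 and Nhp2l1 were the other higher genes and Thoc4 the other lower one.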

How the data were processed

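DNA from 3 two-colour promoter arrays of G0-arrested C2C12 cells was analysed: 2 PRDM2 arrays and 1 H3K9me2 array, grouped by their titles. The deposited scanner files hold processed intensity signals per channel, background-subtracted and dye-normalised by Agilent Feature Extraction 10.5.1.1, and a log10 ratio, per the file headers. The deposited value table holds log2 ratios of unstated centring and serves as an alternative; its column medians were 0.12 and 0.10 for PRDM2 and 0.28 for H3K9me2, and its direction matched the scanner ratios (r = 0.94 to 0.97). Flag columns were deposited by the authors as whole-number codes and used as filters. No label or header names the array's genome build, so no array coordinates are printed.

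Log2 of Cy5 over Cy3 processed signal was centred on each array's median probe, without control spots and outliers (773, 107 and 218 probes). Probes of a gene within 10000 bp formed a promoter, with at least 3 usable probes on every array. limma 3.58.1 (R 4.3.3) was fitted over all 16164 promoters, with Benjamini-Hochberg adjustment. Values beside like GC subtract the median of non-member promoters in 20 GC classes. The fits beside like GC were run on simulated data in which all 3 arrays had the same spread. Such data cannot check the unmeasured spread of H3K9me2 or the stability of the calls. RefSeq start windows (GRCm38.p6) gave sequences and positions. Named genes are the 2 highest and the lowest of each family by PRDM2, the extremes by H3K9me2, by their difference and beside like GC, every gene called beside like GC, and a list of well-known factors; other genes named were chosen after their values were seen. The members and lists were chosen with earlier results of these data known. Alternatives covered background correction, normalisation, the centre, the summary over probes, dim probes, probe number, GC classes and the variance model.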

Additional observations from a re-analysis of the deposited data

How the results depend on the processing

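The PRDM2 median of the members, 0.051 above that of all promoters, ranged from -0.098 with the GC trend of probes removed to 0.26 with the highest 3 neighbouring probes, and was -0.0024 with the median over probes. Beside like GC it was 0.071 and ranged from -0.082 with the GC trend removed to 0.14 with bright probes only. The H3K9me2 median, -0.11 relative to all promoters, ranged from -0.25 with the median over probes to 0.0094 with loess, and beside like GC from -0.18 to 0.10 under the same settings. Leaving out a PRDM2 array left no residual degrees of freedom and so no calls; the PRDM2 median then ranged from 0.0021 to 0.059 above that of all promoters, and from 0.047 to 0.075 beside like GC.

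The counts of calls moved a great deal, as did the shares of all promoters, given in parentheses for the larger counts; the cause was not tested. At least 8 probes left 83 members and bright probes only left 102. PRDM2 over input, with 54 higher (46.9%) and 1 lower (1.08%), gave 18 (13.6%) and 2 (0.959%) with the GC trend removed, 84 (82.8%) and 0 (0.0371%) with the highest 3 neighbouring probes, 29 (20.5%) and 7 (7.12%) with loess, 3 (5.69%) and 0 with the median over probes, 20 (17.2%) and 14 (13%) with the median promoter as 0, and 0 and 0 (0% each) with normexp; lower calls were 0 with bright probes only, 2 with bright input and 2 with a variance trend. Beside like GC, with 5 higher (2.98%) and 3 lower (2.3%), the counts were 0 (0.619%) and 1 (0.229%) with the GC trend removed, 19 (11.3%) and 12 (9.8%) with the highest 3 probes, 25 (15.4%) and 13 (13.9%) with loess, 0 and 0 (0% each) with the median over probes or a variance trend, 2 (1.16%) and 1 (0.767%) with the value table, and 8 (4%) and 5 (3.22%) with members in the class median; higher calls were 9 (5.18%) with at least 8 probes, 10 (3.92%) with normexp and 8 (5.1%) with bright input. PRDM2 minus H3K9me2, with 52 higher (41.1%) and 0 lower, gave 4 higher (2.43%) with the GC trend removed, 5 higher (2.9%) and 5 lower (8.53%) with loess, 2 higher (0.736%) with the median promoter as 0, 32 (22.7%) with the value table and 0 (0%) with normexp, the highest 3 probes, the median over probes or bright probes only. Beside like GC that difference, with 0 each way, gave 6 higher (3.71%) and 3 lower (5.07%) with loess and 1 higher (0.0495%) with normexp. H3K9me2 ratios over 1, with 2 members (4.08%), gave 1 (3.29%) with at least 8 probes, 61 (67.2%) with the highest 3 probes, 11 (10.9%) with loess, 6 (8.51%) with the median over probes, 4 (7.17%) with the median promoter as 0, 7 (10%) with normexp and 13 (11.2%) with bright probes only.

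For the contrast around the start, whose alternatives were chosen after seeing the data, the 21 higher and 2 lower members became 0 and 0 beside probes of like GC or with normexp, and 13 higher of 43 (17.7% of all promoters) with bright probes only. Of the 8 calls beside like GC, Rbm19 was kept in 11 of 13 alternatives, Sf3a1, Sfrs1 and Hnrpdl in 10 of 14, 10 of 14 and 9 of 13, Snrpd1 in 8 of 12, Sf3b4 in 7 of 13, and U2af2 and Sfrs6 in 7 of 14 each. These counts include the median promoter as 0, which cannot change a call beside like GC because the class median cancels it. Fewer than 14 alternatives applied where a setting dropped the promoter for too few probes. Among the 40 named members, sign changes are listed only where the value was called in the main fit or in the alternative. Over input, Hnrpk changed to -0.031 with the GC trend removed, and Lsm12 to -0.16 and Snrpn to -0.53 with loess. Snrpn changed to -0.18 with normexp and Sf3a1 to 0.18 with the highest 3 probes. With the median over probes Sf3b5 changed to -0.20 and Snrpd1 to -0.036. Beside like GC with loess, Hnrpa1 changed to -0.51 and Lsm1 to 0.51. Sign changes of values called in neither fit are left out. No paired analysis was possible because PRDM2 and H3K9me2 share fewer than 2 replicate numbers.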
